A study of Drosophila melanogaster with 2 samples.

Results

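The genes described here encode the nuclear subunits of oxidative phosphorylation. They are the protein-coding genes whose FlyBase symbol starts with ND-, COX4 to COX8, ATPsyn, UQCR, or Sdh followed by A, B, C or D. Subunit genes with other symbols, such as blw of complex V, fall outside this rule and are given below with other pathway genes. The rule found 87 genes among the 13945 protein-coding genes on 6 chromosome arms of *Drosophila melanogaster*: 40 of complex I (ND-), 7 of complex II (Sdh), 9 of complex III (UQCR), 16 of complex IV (COX) and 15 of complex V (ATPsyn). Among them, 20 are paralogues whose symbol ends in L and 4 carry an L followed by a number. ND-MNLL, named for its first residues, was not counted as a paralogue. Chromatin immunoprecipitation and sequencing (ChIP-seq) had been carried out with an anti-GFP antibody on whole embryos, mixed in sex and aged 0 to 24 h, from the strain Camta-MiMIC-GFP. In this line an eGFP exon inserted in an intron of Camta produces a Camta-eGFP fusion. Both samples carry it, in 1 group: biological replicates 2 and 3, from separate biosamples of 1 line. No control sample was analysed here. A gene was called bound when the summit of a peak in the authors' optimal irreproducible discovery rate (IDR) list lay within 500 bp of one of its annotated start sites, on genome build dm6.

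Complexes I and II take electrons from NADH and succinate, complex III passes them to cytochrome c and complex IV passes them on to oxygen. The proton gradient that complexes I, III and IV build is used by complex V, the ATP synthase, to make ATP. The enzymes other than complex II combine subunits from the nucleus with subunits encoded in mitochondrial DNA, so that transcription in both compartments contributes to them. In Drosophila many nuclear subunit genes have duplicates that are known for expression in the testis. Expression was not measured in these samples. Camta, the tagged protein, belongs to the calmodulin-binding transcription activators.

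Oxidative phosphorylation genes were bound about as often as protein-coding genes in general. Of the 87 genes, 14 were bound (16.1%, 95% Wilson interval 9.83 to 25.2), against 18.8% of all protein-coding genes (2619 of 13945). The share is near the background and is no result about the list as a whole. All 14 were among the 63 genes that are not L paralogues (22.2%, interval 13.7 to 33.9), and 0 of the 24 L paralogues were bound (upper bound 13.8%). The bound genes were 7 of complex I, 2 of complex II, 4 of complex IV and 1 of complex V, and in complex III 0 of 9 were bound (upper bound 29.9%). With each replicate's 4033 strongest regions in place of the IDR list, which has 4033 peaks, replicate 2 gave 15 genes (17.2%, against 18.0% of all genes) and replicate 3 gave 16 (18.4%, against 18.9%). Intervals here cover only the number of genes. The lists hold no read counts, so the depth behind them is unknown.

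**Figure D1:**
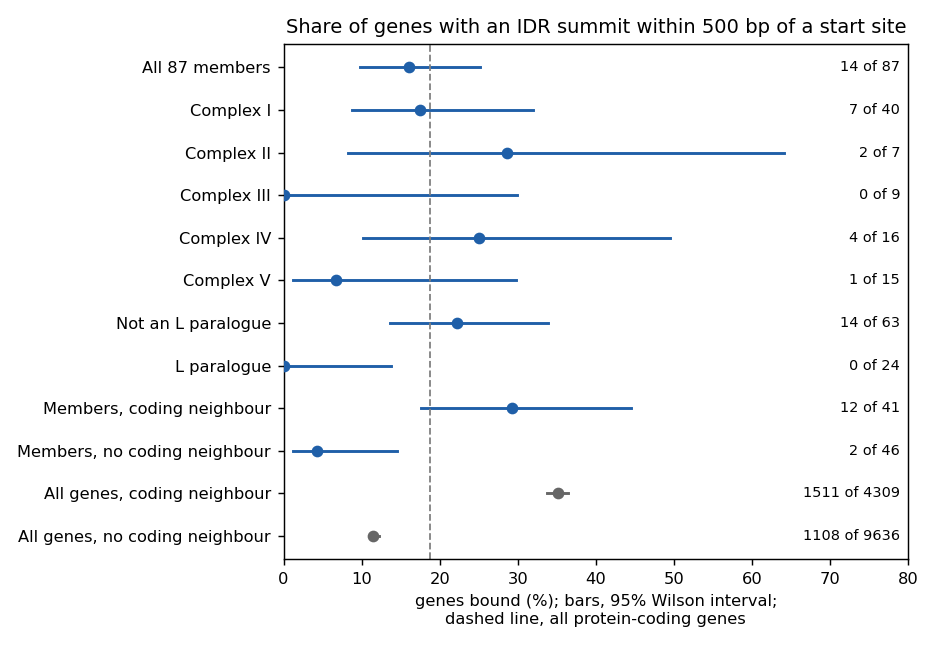
Share of genes bound (horizontal axis, percent) in each set named on the vertical axis, with 95% Wilson intervals as bars and the counts at the right. A coding neighbour is another protein-coding gene with a start site within 500 bp. The dashed line is the 18.8% of all protein-coding genes, and the 14 bound genes of 87 lie at 16.1%.

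Each peak carries the authors' signal value, used here to rank peaks within a list. In the IDR list these values ran from 95.3 to 2218, with a median of 146.7. The peaks at the 14 bound genes had values from 114.2 to 362 with a median of 164.4, and the median over the strongest peak of every bound protein-coding gene was 154.6. Their median rank was 1694.5 of 4033. Among the 2016 strongest peaks lay 8 of them. Weaker regions were taken from a pooled relaxed list, which the authors made from both replicates and which also holds regions below the IDR threshold.

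The sequence at the summits is shown for the 7 bound genes whose summit windows hold no annotated exon. Each window runs 50 bases to either side of the summit and is 101 bases long, in the direction of the subunit gene. It was read from the RefSeq Release 6 assembly, whose coordinates are those of dm6. Capitals mark matches to 1 of 8 motifs searched on both strands. The windows, in order of signal value, are those of ND-51 (chr2L:6062856-6062956, minus strand), ND-ASHI (chrX:6679306-6679406, minus strand), ND-SGDH (chr3L:12138625-12138725, minus strand), COX5B (chr2L:6557506-6557606, plus strand), ND-B17 (chr2L:15751166-15751266, minus strand), COX8 (chr3L:21539461-21539561, minus strand) and SdhC (chr3R:11210052-11210152, minus strand).
ND-51: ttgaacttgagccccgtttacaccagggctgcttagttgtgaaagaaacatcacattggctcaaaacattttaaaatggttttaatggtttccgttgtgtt
ND-ASHI: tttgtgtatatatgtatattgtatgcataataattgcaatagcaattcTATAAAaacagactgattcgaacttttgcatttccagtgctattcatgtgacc
ND-SGDH: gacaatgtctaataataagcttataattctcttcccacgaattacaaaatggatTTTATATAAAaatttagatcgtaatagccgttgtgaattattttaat
COX5B: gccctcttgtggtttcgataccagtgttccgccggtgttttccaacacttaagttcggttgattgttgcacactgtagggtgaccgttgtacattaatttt
ND-B17: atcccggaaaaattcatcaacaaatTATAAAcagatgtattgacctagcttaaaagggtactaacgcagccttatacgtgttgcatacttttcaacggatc
COX8: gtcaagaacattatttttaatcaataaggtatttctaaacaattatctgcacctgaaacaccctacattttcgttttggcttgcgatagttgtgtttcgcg
SdhC: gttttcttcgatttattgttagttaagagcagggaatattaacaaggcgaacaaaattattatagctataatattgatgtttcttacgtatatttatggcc
The capitals are the TATA box (TATAAA) at ND-ASHI and ND-B17. At ND-SGDH a TATA box overlaps the form TTATATAA of the element described at nuclear respiratory genes of Drosophila, which was searched as TTATATAA, TTATGTAA, TTACATAA and TTACGTAA. The windows at ND-51, COX5B, COX8 and SdhC held none of the 8 motifs. A match describes letters only and is not evidence of a site in use.

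The strongest of these peaks stood at complex I genes. ND-MWFE, which encodes a small accessory subunit, had a peak with a signal value of 362 (rank 382), at 13158366 to 13158560 of 2R. Its region ranked 447 in replicate 2 with a signal value of 131.1, and 368 in replicate 3 with 226. ND-51 encodes the core subunit that binds NADH, and the peak there (2L, 6062694 to 6063117) reached 328 (rank 473). In replicate 2 it ranked 618 with a signal value of 112, and in replicate 3 it ranked 451 with 207. At ND-ASHI, an accessory subunit gene, the peak (X, 6679268 to 6679477) reached 311 (rank 530). Its signal value was 116.3 in replicate 2 (rank 569) and 196.2 in replicate 3 (rank 507). These 3 peaks stood within the strongest 618 regions of both replicates.

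ND-24 encodes an iron-sulfur subunit that works beside ND-51 in oxidising NADH. The peak at this gene (X, 17632078 to 17632282) reached 289.4 (rank 607), with rank 1015 in replicate 2 and 479 in replicate 3. The other bound genes of complex I encode accessory subunits and had weaker peaks. ND-SGDH had a peak of 182.6 on 3L from 12138463 to 12138886, with rank 2199 in replicate 2 and 1186 in replicate 3. At ND-42 the signal value was 166.9 on 3R from 22027189 to 22027612, with ranks 1896 and 1601. ND-B17 had a peak of 144 on 2L from 15751004 to 15751427, with ranks 2902 and 2006. All 7 complex I peaks were among the 4033 strongest regions of both replicates.

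Complex II passes electrons from succinate to ubiquinone and is anchored in the inner membrane by the products of SdhC and SdhD. Both anchor genes were bound by the 500 bp rule. The summit at SdhC lay 253 bp from its start site and 145 bp from that of Tctp, a divergent coding gene. SdhC had a peak of 125.8 (rank 2608) on 3R from 11209890 to 11210313, and SdhD one of 114.2 (rank 3049) on 3R from 23760378 to 23760801. The replicates ranked them differently. The region at SdhC ranked 4781 in replicate 2, with a signal value of 36.41, and 2260 in replicate 3, with 84.65. The region at SdhD ranked 2081 in replicate 2, with 58.85, and 4046 in replicate 3, with 57.78. Without replicate 2 the call at SdhD was lost, and without replicate 3 the call at SdhC was lost, so that either replicate alone left 1 bound gene in complex II. SdhA, the flavoprotein gene, had a pooled relaxed region of signal value 36.26. SdhB, the iron-sulfur gene, had no pooled relaxed region at its start site.

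Complex IV reduces oxygen at a core of subunits encoded in mitochondrial DNA, around which the nuclear subunits are arranged. The bound members were COX5A, COX5B, COX6B and COX8. COX5A had the strongest peak, of signal value 265.4 (rank 711) on 3R from 11819322 to 11819745. Its region ranked higher in replicate 2, at 454 with a signal value of 130.5, than in replicate 3, at 1065 with 132.2. COX5B had a peak of 161.9 (rank 1738) on 2L from 6557344 to 6557767, with ranks 1577 and 1799, and COX6B one of 137.9 (rank 2244) on X from 19744199 to 19744622, with ranks 3136 and 2021. COX8 had a peak of 126.4 (rank 2584) on 3L from 21539299 to 21539722. Its region ranked 5700 in replicate 2, with a signal value of 32.9, and 1895 in replicate 3, with 93.12, and without replicate 3 the call was lost. COX4, which encodes another nuclear subunit, had no pooled relaxed region at its start site.

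In complex V, the alpha subunit gene blw lies outside the symbol rule and was bound, at 216.8. Among the members, ATPsynF, which encodes subunit f of the membrane part of the enzyme, was the bound gene. The peak there (2R, 24599709 to 24600132) reached 130.9 (rank 2435), with rank 1753 and a signal value of 64.63 in replicate 2 and rank 3635 and 62.2 in replicate 3. Replicate 3 alone gave 4 bound members in this complex. The additional genes were ATPsynCF6, a coupling factor gene, ATPsynE, and ATPsynbeta, which encodes the catalytic subunit. At ATPsynbeta the region ranked 3564 in replicate 3 and 21615 in replicate 2.

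**Figure D2:**
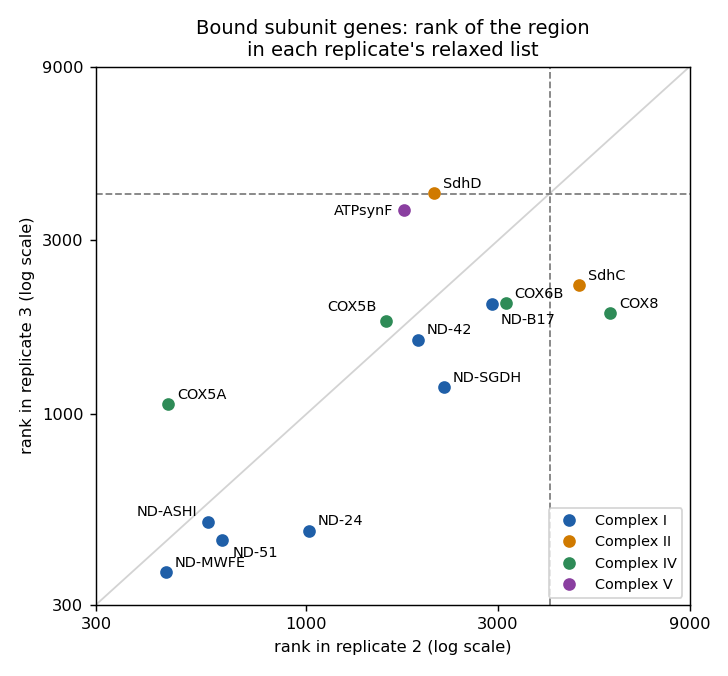
Rank of the strongest region at each of the 14 bound genes in the relaxed list of replicate 2 (horizontal axis, log scale) and of replicate 3 (vertical axis, log scale), with 1 point a gene, coloured by complex. Dashed lines mark rank 4033 and the grey line marks equal ranks. SdhC and COX8 lie beyond rank 4033 in replicate 2, and SdhD in replicate 3.

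Each replicate also has a relaxed list, of peaks and background before the IDR threshold, and all 14 genes had a region in both. For 11 of them it was among the 4033 strongest in both, for 1 in replicate 2 only and for 2 in replicate 3 only. Across the 14 genes, Spearman's rho between the signal values of the replicates was 0.719. This is a description over 14 peaks whose lists, per the file records, were made with 1 file in common. In replicate 3 the rank was better for 10 of the genes, and in replicate 2 for 4.

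Most of these summits lay near the start sites of more than 1 gene. For 13 of the 14 genes the same summit also met the 500 bp rule for a different gene (92.9%, 95% Wilson interval 68.5 to 98.7), against 60.6% of all 2619 bound protein-coding genes, and for 12 of the 14 that gene was protein-coding (85.7%, interval 60.1 to 96), against 57.8% of them. Each of the 12 had a divergent coding partner, and the start sites nearest the summit lay 42 to 522 bp apart. In 10 of the 14 the summit was upstream of the nearest start site of both genes. At ND-24 and ND-42 it lay downstream of the nearest start site of 1 gene of the pair. The peak therefore cannot be assigned to the subunit gene alone. With each summit counted for its nearest start site only, 7 of 87 genes (8.05%) stayed bound, against 13.8% of all protein-coding genes. These were COX5A, COX8, ND-24, ND-ASHI, ND-B17, ND-SGDH and SdhD.

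The partners encode proteins of varied kinds. The summit at ND-ASHI lay 238 bp upstream of it and 284 bp upstream of Fum1, which encodes fumarase, an enzyme of the tricarboxylic acid cycle. The summit at ND-42 lay 308 bp upstream of it and 79 bp downstream of the start of Cchl, which encodes the lyase that attaches heme to cytochrome c. Other partners included TppII, a peptidase gene, 41 bp from the summit at ND-MWFE, and IFT52, an intraflagellar transport gene, 54 bp from the summit at COX5B. The gene glo encodes an RNA-binding protein and lay 114 bp from the summit at COX5A, whose own start sites lay 65 bp downstream and 175 bp upstream of the summit. The summit at COX8 was shared with VhaM9.7-b, a vacuolar proton pump gene, at 351 bp. At ND-51 the summit lay 149 bp from its start site and 83 bp from that of CG13994. At ATPsynF it lay 100 bp from its nearest start site and 26 bp from that of CG3548. COX6B had 3 coding partners, CG18809 at the same start site and CG33932 and Rpp20 20 bp from the summit. SdhD had no other start site near its summit, which lay 10 bp downstream of its own. ND-B17 shared its peak with the small nuclear RNA gene snRNA:U5:35D, 466 bp from the summit.

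**Figure D3:**
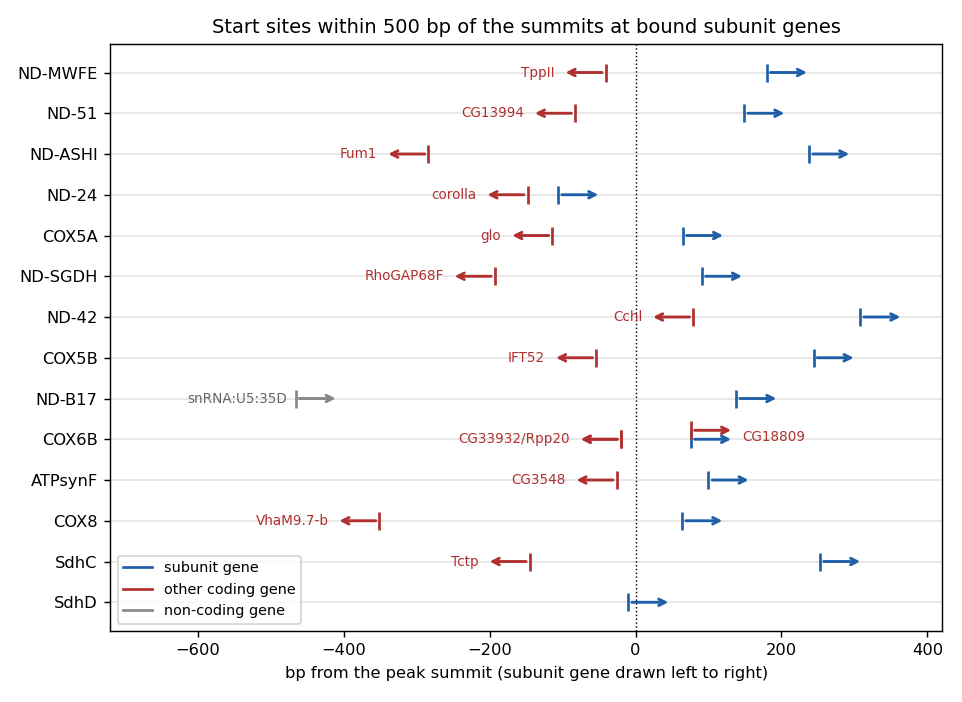
Start sites near the summit of the peak at each of the 14 bound genes, ordered by signal value from the top. The horizontal axis is the distance from the summit in bp, with each subunit gene drawn left to right. Vertical ticks are start sites and arrows the direction of transcription, with blue for the subunit gene's nearest start, red for other coding genes and grey for a non-coding gene. In 12 of the 14 rows a coding gene is read in the opposite direction.

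The share of genes with a close neighbour was taken as a value to set beside these counts. Another protein-coding start site lay within 500 bp for 41 of the 87 genes (47.1%), against 30.9% of all protein-coding genes, and for 38 of the 63 that are not L paralogues (60.3%). Genes with such a neighbour were bound in 12 of 41 cases (29.3%, interval 17.6 to 44.5), against 35.1% of the 4309 protein-coding genes with one. Genes without one were bound in 2 of 46 cases (4.35%, interval 1.2 to 14.5), against 11.5% of 9636. Both intervals included the share of all genes in the same class. The 2 bound genes without a coding neighbour were ND-B17 and SdhD. Summits lay a median of 119 bp upstream of the subunit gene's nearest start, and 122 bp upstream over all bound protein-coding genes. They were upstream of it for 12 of the 14, with SdhD and ND-24 as the exceptions, and for 86.3% of bound genes. At ND-24 the summit lay 106 bp downstream of 1 start site and 126 bp upstream of the other.

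Over the 14 summit windows the TATA box was present in 5 (35.7%), against 16.9% of the 2045 IDR peaks at protein-coding start sites. The number of windows is small, and no difference in motif shares was tested. The nuclear respiratory gene element was present in 1, that of ND-SGDH (7.14%, against 1.66%). The core of the DRE, the element bound by the promoter factor DREF (core ATCGAT), was present in 2 (14.3%, against 10.5%). The full DRE (TATCGATA), which contains that core, Motif 1 (GGTCACAC), the element of the promoter factor M1BP, and the CGCG box that Camta proteins bind in vitro, searched as CGCG with A, C or G before it and C, G or T after it, were present in 0 of the 14. At all 2045 peaks they were present in 4.11%, 2.35% and 7.92%. The E-box CACGTG and the ETS core CCGGAAGT were likewise at 0 of 14, against 1.22% and 0.44%. The windows at the 14 genes held 36% G and C on average, against 37.3% at the 2045 peaks.

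Promoters of the subunit genes, taken from 250 bases before to 50 after the outermost start site, held Motif 1 in 16 of 87 cases (18.4%), against 7.7% of all protein-coding promoters of this length. It was present in 4 of the 14 bound genes (28.6%, against 11.4% of all bound genes) and in 11 of the 49 unbound genes that are not L paralogues (22.4%). The bound genes with Motif 1 were ND-B17, ND-MWFE, COX5A and COX5B. The match began 15 bases upstream of the start site at ND-B17, 35 upstream at COX5A and at position 13 of the transcript at COX5B. These are shown for the genes with a window of 30 bases, in the direction of the gene, with Motif 1 on either strand in capitals: ND-B17 at chr2L:15751075-15751104, COX5A at chr3R:11819313-11819342 and COX5B at chr2L:6557801-6557830.
ND-B17: tttaagagtgcGGTCACACtggcggcaaca
COX5A: ttgaagatgcaGTGTGACCgcaattaaatc
COX5B: tactttaccgcGGTCACACtgatccatagc
At ND-B17 and COX5B the letters are those of the forward strand of the gene, and at COX5A the match is on the other strand.

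The full DRE was present in 9 of the 87 promoters (10.3%), against 9.36% of all protein-coding promoters. None of these 9 genes was bound: ND-15, ND-19, ND-23, ND-B14.5A, ND-B15, ND-MNLL, UQCR-14, COX4 and COX7A. Over all protein-coding genes, 1305 promoters held it, and 391 of these genes were bound. Of all bound protein-coding genes 14.9% held it, against 0 of the 14 bound members. With so few bound members this difference is uncertain, and it was not tested. Examples of 30 bases with the DRE in capitals are UQCR-14 (chrX:16286215-16286244), where the match began 62 bases upstream of the start site, and ND-B14.5A (chrX:2172444-2172473), where it began 71 bases upstream.
UQCR-14: tgagtgcgataTATCGATAggtgcagtgtg
ND-B14.5A: ttcgcgatagtTATCGATAagtatatcaat
The CGCG box was present in 14 of the 87 promoters (16.1%), against 24.4% of all protein-coding promoters, and in 4 of the 14 bound ones (28.6%, against 28.8% of all bound genes): ND-24, COX5A, COX5B and COX6B. The nuclear respiratory gene element stood in 5 promoters (5.75%, against 5.18%). Among them were those of 2 of the 14 bound genes, ND-42 and ND-SGDH (14.3%, against 5.5% of all bound genes). The other 3 were among the 49 unbound genes that are not L paralogues (6.12%). The TATA box stood in 48 (55.2%, against 45.8%), the DRE core in 26 (29.9%, against 23.3%), the E-box in 4 (4.6%, against 4.2%) and the ETS core in 0 (against 0.38%). For the TATA box the share was 57.1% of the 14 bound genes and 63.3% of the 49 unbound genes that are not L paralogues. The promoters of the 87 genes held 35% G and C, against 39.1% over all protein-coding promoters.

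A region in the pooled relaxed list, bound genes included, was present for 56 of all 87 genes (64.4%), against 53.2% of all protein-coding genes, and for 52 of the 63 that are not L paralogues (82.5%). Among unbound genes alone it was present for 42 of all 73 members (57.5%), against 42.3% of all unbound protein-coding genes. These 42 regions had signal values from 28.89 to 89.74 and a median of 52.42, and 31 unbound members had none. For the 49 that are not L paralogues the count was 38 (77.6%). Paralogues were not removed from the genes in general, so this share has no matched background. Members that are not L paralogues also had a coding neighbour more often (60.3%, against 30.9% of all protein-coding genes). The part of such neighbours was not tested. The bound member nearest the threshold was SdhD, at 114.2 and rank 3049. Just outside stood COX7B, at 89.74 and rank 4407, which ranked 4222 in replicate 2 and 4320 in replicate 3. ATPsynbeta followed at 89.73, ATPsynCF6 at 88.3 and ND-MNLL at 87.34.

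The next 6 were ND-B17.2 at 81.2, ND-B8 at 79.76, UQCR-14 at 79.54, ND-B18 at 78.59, ND-20 at 78.18 and ATPsynC at 72.04. ND-20 encodes the core subunit that carries the last iron-sulfur cluster before ubiquinone, and ATPsynC encodes the subunit of the rotating ring. The replicates differed at ND-B8, with rank 3497 in replicate 2 and 25841 in replicate 3, and at ND-20, with ranks 2462 and 14622. In replicate 2 alone ND-20, ND-B8 and ND-MNLL would be bound. In complex III the 6 members that are not L paralogues all had a pooled relaxed region, with UQCR-14 the strongest, at 79.54. UQCR-C1 and UQCR-C2, the core protein genes, had signal values of 54.08 and 69.78.

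**Figure D4:**
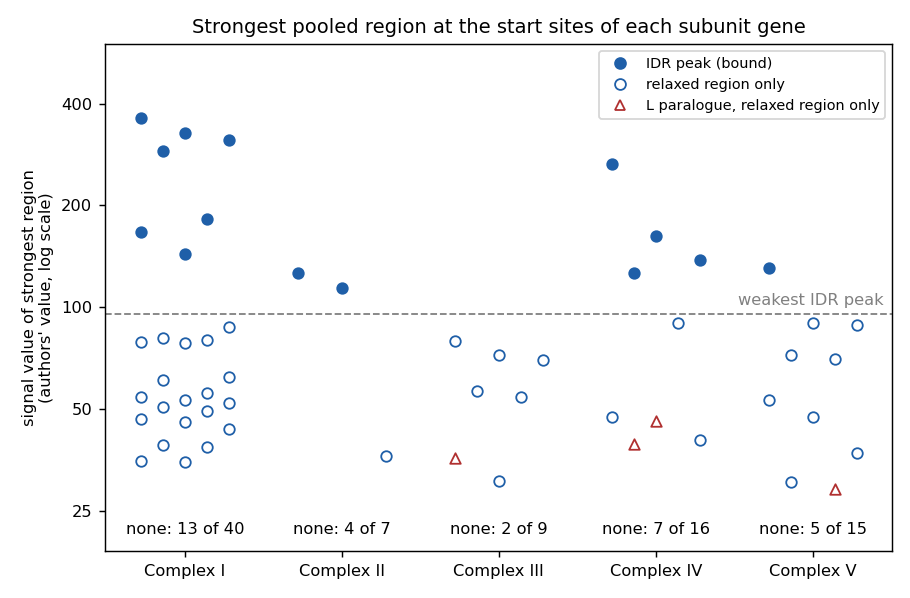
Signal value of the strongest region of the pooled relaxed list at a start site of each gene (vertical axis, log scale, authors' value), by complex. Filled circles are bound genes, open circles genes with a pooled relaxed region only and open triangles L paralogues with one, and the number with no region stands below. The dashed line is the weakest IDR peak, at 95.3, and in complex III all symbols lie below it.

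Most L paralogues had no region in the pooled relaxed list. Of the 24, 20 had no pooled relaxed region at a start site. A region was present for 4 (16.7%), against 42.3% of all unbound protein-coding genes and 53.2% of all protein-coding genes. These 4 were COX7AL2 at 46.05, COX7AL at 39.45, UQCR-6.4L at 35.75 and ATPsynGL at 28.89. Parent genes were matched by symbol among the members only. The parent so matched was bound for 5 of the 24, namely ND-24L, ND-51L1, ND-51L2, SdhCL and COX5BL, and each of these 5 had no pooled relaxed region. The parent was unbound for 15. For 4 (COX6AL, COX6AL2, COX6CL and ATPsynepsilonL) no member carries the parent symbol, and a parent with another symbol was not looked up. The start site of COX5BL lay 1875 bp from the nearest IDR summit, which is the one at COX5B. Over the 24 the distance to the nearest IDR summit ran from 1416 to 226992 bp with a median of 13560.5 bp, against a median of 5314 bp over the 49 other unbound members. SdhBL and COX4L, which had no pooled region, each had a weak region in the relaxed list of replicate 2, at 17.88 (rank 17639) and 13.19 (rank 29674). The remaining L paralogues without a pooled relaxed region were ND-20L, ND-49L, ND-B14.5AL, SdhAL, UQCR-11L, UQCR-14L, COX7CL, ATPsynCF6L and ATPsynbetaL. Another coding start site lay within 500 bp for 3 of the 24 (12.5%). Of the 21 without one, 0 were bound, and the upper bound of 15.5% lies above the 11.5% of all protein-coding genes without one. The part of close neighbours in the count was not tested.

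Other genes of the pathway were taken from lists of 64 symbols, of which 52 were matched to an annotated gene. Of subunits and cytochrome c genes with other symbols 5 of 11 were bound (45.5%, 95% Wilson interval 21.3 to 72, against the 18.8% of all genes). Cyt-c-d, the cytochrome c gene known from sperm differentiation, had the strongest peak, of 467.1 (rank 197), 390 bp downstream of its start and also at a start site of CG31808. The alpha subunit gene of the ATP synthase, blw, had a peak of 216.8 (rank 1057), with no other start site near it. The others were levy, of complex IV, at 105.6, RFeSP, the Rieske iron-sulfur gene of complex III, at 105.5, and ox, also of complex III, at 101.1. The peak at levy was shared with wmd and that at ox with Dgkepsilon, while RFeSP had no other start site near its summit. The region at RFeSP ranked 4898 in replicate 2 and that at ox ranked 5340 in replicate 3, so that either replicate alone left 1 of these 2 complex III genes bound. Cyt-c-p, the other cytochrome c gene, was unbound with a pooled relaxed region of 68.85. The testis-type genes Cyt-c1L and knon had no pooled relaxed region.

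Genes of the tricarboxylic acid cycle and pyruvate dehydrogenase were bound in 7 of 14 matched cases (50%, interval 26.8 to 73.2), against 18.8% of all protein-coding genes. Besides Fum1 they were mAcon1, the aconitase gene, at 224, all 3 subunits of the NAD-linked isocitrate dehydrogenase, Idh3g at 223.3, Idh3b at 128 and Idh3a at 106, and the pyruvate dehydrogenase genes muc at 118.6 and Pdhb at 98.44. Most of these peaks also lay at another gene's start. They were shared by Fum1 with ND-ASHI, mAcon1 with CG43345 and CG43346, Idh3g with CG4743, Idh3a with CoRest, and Pdhb with alpha-Man-Ib. Only Idh3b and muc had no other start site near the summit. Without replicate 3 this count was 4 of 14 (28.6%, against 18.0% of all genes), and without replicate 2 it was 8 (57.1%, against 18.9%). In replicate 2 the regions at Pdhb, Idh3a, Idh3b and muc ranked 7129, 5653, 4996 and 4365. Unbound genes of this list included kdn, the citrate synthase gene, with a pooled relaxed region of 58.34, and Mdh2, a malate dehydrogenase gene, with 42.73.

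Of 24 listed assembly factors and carriers 14 were matched, and 4 of these were bound (28.6%, interval 11.7 to 54.6, which includes the 18.8% of all genes): Cchl with the peak shared with ND-42, Coq7, of ubiquinone synthesis, at 151.9, Cox17, a copper chaperone of complex IV, at 144.6, and Mpcp2, a phosphate carrier, at 95.56. The adenine nucleotide carriers sesB and Ant2 had no pooled relaxed region. Genes of mitochondrial transcription and replication and their regulators were bound in 3 of 13 cases (23.1%, interval 8.18 to 50.3), near the background. Dref, the gene of DREF, had a peak of 319.7 shared with RpL13, mtSSB, the mitochondrial single-strand DNA binding protein gene, one of 310.4, and ERR, an orphan nuclear receptor gene, one of 159.9 shared with Atg18a. TFAM, PolrMT and mtTFB2, which serve transcription of mitochondrial DNA, were unbound, with pooled relaxed regions of 44.56 and 90.89 for the first pair and none for mtTFB2. The mitochondrial ribosomal protein genes, by comparison, were bound in 25 of 73 cases (34.2%, interval 24.4 to 45.7). No difference between any of these lists and the subunit genes was tested.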

How the data were processed

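Peak lists of 2 replicates on dm6 were used; the dm3 lists were not analysed here. Per the file headers and records, the authors deposited a relaxed list of peaks and background for each replicate and for the pool, and the optimal IDR list made from these 3. The signal value was deposited by the authors, on a scale that no source used here states. The authors deposited each q value as its −log10. No source used here names the aligner or peak caller.

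Start sites came from Ensembl release 115 (BDGP6.54), without transposable elements and pseudogenes. All 87 members had the same gene start and end in RefSeq. The pooled relaxed list holds 30000 regions, that of replicate 2 30000 and that of replicate 3 29279. Positions are counted from 1. A negative distance to a start site means upstream. Shares carry 95% Wilson intervals and no list test was made. The step that calls genes was checked on simulated summits placed at known distances from start sites.

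The members and lists were chosen with earlier results of these data known. Named were every bound member, the 10 strongest unbound ones, the L paralogues and bound genes of 4 pathway lists; other unbound genes were added after their values were seen. Alternatives covered windows of 250 and 1000 bp, thresholds, start sites, overlap and each replicate alone. Computation used pandas 2.3.3 and NumPy 2.4.6 in Python 3.11.15, with SciPy 1.17.1 for intervals and Matplotlib 3.10.9 for figures.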

Additional observations from a re-analysis of the deposited data

How the results depend on the processing

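Over 21 counts and shares and 119 alternative values, 90 stayed within 1.5 times the reported count or, for a motif share, within its interval, and 29 moved. The L paralogues had 0 bound genes under each of the 9 alternatives run for them. Those with a narrower window, fewer peaks or fewer start sites could give no other value, because the main count was 0. Leaving out each replicate gave 15 to 16 bound members, with 1 in complex II and 1 to 4 in complex V, and 4 to 8 tricarboxylic acid cycle genes.

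Among the 2016 strongest peaks, 8 members were bound (9.2%, against 10.1% or 1412 of all protein-coding genes), with 2 in complex IV and 0 in complexes II and V. The pathway lists then had 2 (other subunits, 18.2%), 2 (assembly factors, 14.3%) and 3 (tricarboxylic acid cycle, 21.4%) bound genes. With pooled relaxed regions of q value 0.01 or less, 23 members were bound (12 in complex I, 1 in complex III and 3 in complex V), against 24.4% of all genes, and 6 genes of mitochondrial transcription. With the nearest start site only, 7 members were bound (4 in complex I, 1 in II, 2 in IV, 0 in V). So were 2 other subunits (18.2%) and 4 tricarboxylic acid cycle genes (28.6%), against 13.8% of all genes. A window of 250 bp left 12 members bound (13.8%, against 15.3% of all genes), with 1 in complex II. Of the 12, 8 had another gene's start site near the summit. A window of 1000 bp gave 17 bound members (19.5%, against 21.6% of all genes), with 2 in complex V (13.3%). At the summit instead of the promoter, Motif 1 and the CGCG box were at 0% of bound members. Smaller windows and shorter lists hold fewer matches by construction; other causes were not tested.

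No paired analysis was possible because there is a single group. The depth of either replicate is unknown, and signal values were compared between lists by rank only.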
